A study of Homo sapiens with 6 samples.

Results

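The STAT and JAK transcripts described here are those of 5 signal transducers and activators of transcription (STAT6, STAT3, STAT4, STAT5A and STAT5B) and of 4 Janus kinases (JAK1, JAK2, JAK3 and TYK2). They are 9 of 18417 genes with a probe set of their own on the arrays, and each of the 9 had exactly 1 such probe set, so the rule of taking the brightest probe set over all 6 arrays made no choice among them. The set was assembled with earlier results of these arrays known, and STAT6 stands first in it because of its difference between the groups. The values of STAT6 are therefore given as a description, and although it enters the counts of genes past a threshold, nothing is read from that. The remaining STATs are not analysed here.

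The arrays, with 1 sample each, hold RNA of MCF10A, a human breast epithelial cell line that is immortal but forms no tumours, in a derivative named with ErbB2, a receptor tyrosine kinase. There were 3 arrays of RB-deficient cells, whose titles carry the tag miRB, and 3 arrays of RB-proficient cells, whose titles carry the tag miNS. Cells of both groups carried ErbB2, grew for 7 days in a reconstituted basement membrane and received medium with horse serum, insulin, cholera toxin and hydrocortisone. The tags are not spelled out in the labels, and nothing says whether the replicates were separate cultures or 1 clone, so p-values reflect the spread of these arrays alone, which may be technical.

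In the textbook pathway, a cytokine joins the chains of its receptor, the JAKs bound to those chains phosphorylate each other and the receptor, and a STAT docks there, is phosphorylated on a tyrosine, pairs with another STAT and enters the nucleus. STAT6 serves interleukin 4 and interleukin 13, STAT3 the interleukin 6 family, STAT4 interleukin 12, and STAT5A and STAT5B prolactin, growth hormone and interleukin 2. In the mammary gland, prolactin acts through JAK2 and STAT5A in milk production, and STAT3 is needed for involution after weaning. These arrays measure messenger RNA and carry no information on phosphorylation, the step that switches these proteins on.

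All values are log2 intensities in which 0 is the floor, and all differences are RB-deficient minus RB-proficient on that scale. RB1, whose protein names the groups, had 3.45, 5.09 and 6.04 in the arrays labelled RB-deficient, against 7.01, 5.77 and 7.65 in the RB-proficient arrays. The array labelled RB-deficient 3 thus lay above RB-proficient array 2, and the groups rest on the labels. The arrays labelled RB-deficient were less alike, with a median SD of a gene of 0.842 against 0.397 in the RB-proficient arrays. Across genes, array 3 of the RB-deficient label correlated with the RB-proficient arrays at 0.832 to 0.882. Arrays 1 and 2 of that label reached 0.684 to 0.755 with the RB-proficient arrays, and only 0.673 with each other. Their correlations with array 3 were 0.713 and 0.753. A log2 value of 0 was recorded for 4.71% of genes in array 1 of that label and 1.62% in array 2. In array 3 this share was 0.684%, and in the RB-proficient arrays it was 0.326% to 0.684%. The part of these array properties in the differences was not tested. Of 12 measured mammary epithelial markers, EPCAM (10.1 to 10.4, against 9.99 to 10.1) and S100A2 (11.5 to 12.1, against 11.3 to 11.6) were bright in all arrays of both groups, and the 12 markers summed to linear intensities of 5155 to 7626 under the RB-deficient label and 7112 to 10693 in the RB-proficient arrays; 0 of the 12 passed. Without overlap, 6 were lower and 1 (EPCAM) was higher, beside 15.3% and 7.12% of all genes. The most negative differences among these markers were those of KRT5 (−2.40), ITGB4 (−2.29), KRT7 (−2.15) and SFN (−1.80), and their part in the results was not tested. The reference genes ACTB and GAPDH differed by −1.92 and −1.23 and had lower values in all 3 arrays labelled RB-deficient than in any RB-proficient array. The median difference over all 18417 genes was −0.21. In such bulk samples, fewer cells of a type and less RNA per cell cannot be told apart.

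STAT6, the factor of interleukin 4 and interleukin 13 responses, had lower values in all 3 arrays labelled RB-deficient than in any RB-proficient array. It was read by probe set 7964360 and had log2 values of 3.47, 3.74 and 5.29 under the RB-deficient label, against 7.12, 7.65 and 7.73 in the RB-proficient arrays. Before scaling, the deposited intensities of the RB-deficient label were 8.84, 13.3 and 40.8, against 139, 204 and 191 for RB-proficient arrays. The size of the difference depends on the handling of such low values: it was −3.07 when values under 16, in place of 1, were raised to the floor, and −2.48 when an offset of 16 was added before log2 was taken. The groups did not overlap: the highest value of the arrays labelled RB-deficient, in array 3, lay 1.83 below the lowest RB-proficient value. The means were 4.17 ± 0.98 and 7.50 ± 0.33 (SD, n = 3 each), a difference of −3.33 (SE 0.60), or −3.12 relative to the median of all genes. A difference as low as that of STAT6 or lower was seen in 60 of 18417 genes (0.326%). With the array labelled RB-deficient 3 alone against the RB-proficient arrays, the difference of STAT6 was −2.21.

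**Figure D1:**
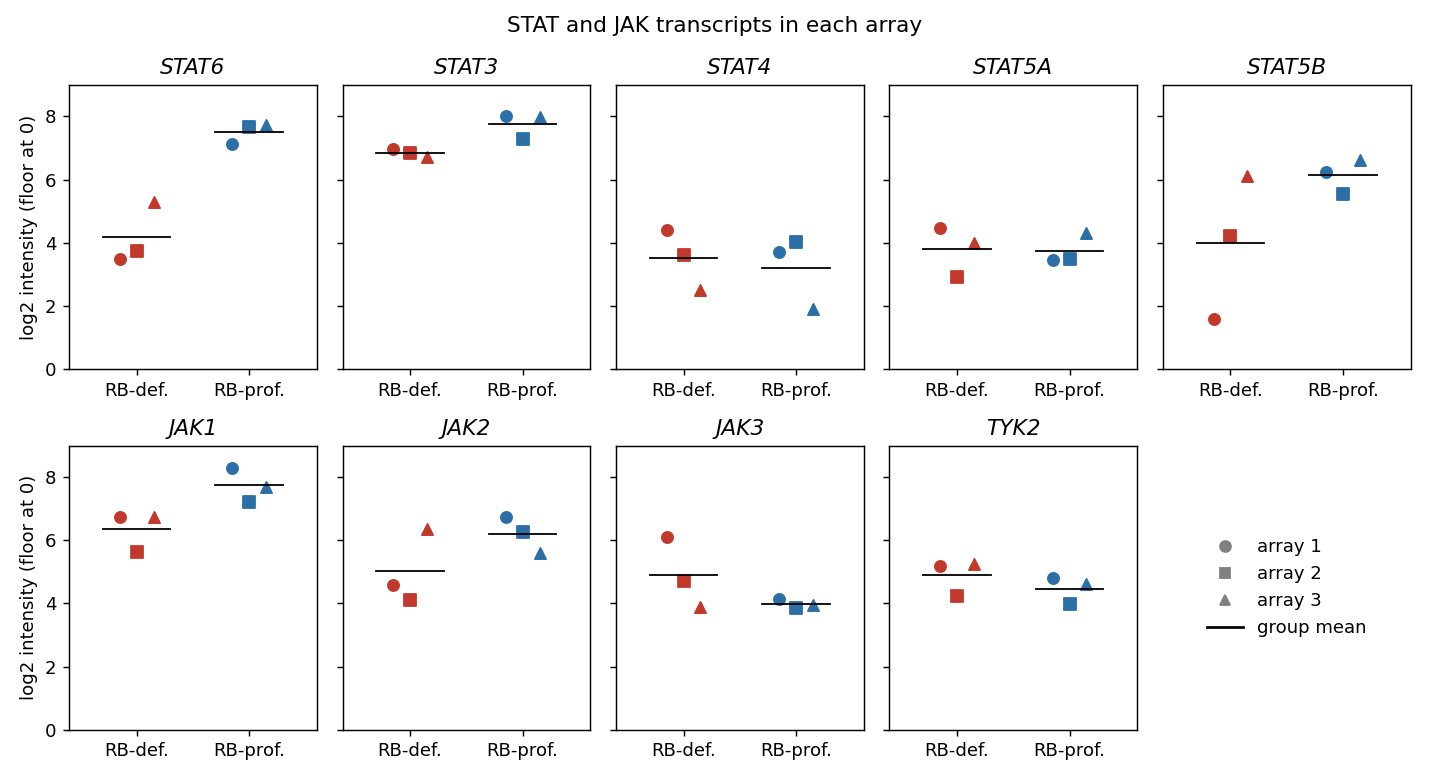
Log2 intensity (vertical axis, floor at 0) of each of the 9 STAT and JAK genes in every array, with the 3 arrays labelled RB-deficient left and the 3 RB-proficient arrays right in each panel. Symbols give the array number and the horizontal lines the group means. STAT6, STAT3 and JAK1 are the panels in which all red points lie below all blue ones.

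RefSeq (GRCh38.p14) gives 1 promoter window for STAT6, from 250 bases before the transcription start to 50 bases after it, at chr12:57110240-57110539 on the minus strand. It is shown because STAT6 has the largest difference of the 9 genes. The 3 windows below, all written 5′ to 3′, were searched on both strands for the STAT palindrome TTCNNNGAA, the form with a longer spacer that STAT6 is known to prefer, TTCNNNNGAA, and 4 spellings of the E2F site, TTTCCCGC, TTTCGCGC, TTTGCCGC and TTTGGCGC. Matches are in capitals.
STAT6: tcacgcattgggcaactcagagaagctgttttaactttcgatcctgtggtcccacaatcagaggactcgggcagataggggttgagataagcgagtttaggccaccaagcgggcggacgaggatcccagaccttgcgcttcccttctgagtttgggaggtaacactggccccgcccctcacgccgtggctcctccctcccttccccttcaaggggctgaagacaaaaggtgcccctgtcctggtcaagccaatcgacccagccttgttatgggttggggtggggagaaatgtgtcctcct
BCL6: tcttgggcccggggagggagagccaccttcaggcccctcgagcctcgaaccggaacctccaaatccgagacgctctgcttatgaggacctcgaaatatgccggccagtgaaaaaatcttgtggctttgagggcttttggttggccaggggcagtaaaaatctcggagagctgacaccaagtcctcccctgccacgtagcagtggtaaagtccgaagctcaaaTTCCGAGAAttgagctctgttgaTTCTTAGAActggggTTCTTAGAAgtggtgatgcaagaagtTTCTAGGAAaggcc
CISH: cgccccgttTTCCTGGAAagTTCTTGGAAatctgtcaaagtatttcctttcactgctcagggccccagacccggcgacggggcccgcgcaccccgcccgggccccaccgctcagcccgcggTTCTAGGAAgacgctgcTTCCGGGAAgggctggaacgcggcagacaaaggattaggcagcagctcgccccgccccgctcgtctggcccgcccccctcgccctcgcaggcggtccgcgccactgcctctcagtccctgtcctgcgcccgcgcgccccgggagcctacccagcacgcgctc
The BCL6 window is at chr3:187745419-187745718 and the CISH window at chr3:50611725-50612024, both on the minus strand, and they are shown because each spells TTCNNNGAA 4 times. The other annotated BCL6 window held 0 matches. Only 7 of 35116 RefSeq windows of this length, from 6 genes, held it 4 or more times. The STAT6 window held 0 of the 3 motifs, and across the 17 windows of the 9 STAT and JAK genes, which have 1 to 4 annotated starts each, TTCNNNGAA was found in 0, TTCNNNNGAA in 1 (a STAT5A window) and the E2F spellings in 0. Over all 35116 windows the shares were 7.66% for TTCNNNGAA, 6.44% for TTCNNNNGAA and 3.31% for the E2F spellings. A match describes letters only, and the windows say nothing about binding in these cells.

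STAT3, which carries signals of the interleukin 6 family and is the other STAT whose groups did not overlap, had 6.98, 6.84 and 6.70 in the arrays labelled RB-deficient, against 8.03, 7.29 and 7.99 in the RB-proficient arrays. The 3 arrays labelled RB-deficient lay within 0.28 of each other, array 3 included, which is closer than for any other gene of the 9 in those arrays. The difference was −0.93 (SE 0.48, adjusted p 0.426 in limma's test over all genes), or −0.71 relative to the median of all genes, so STAT3 did not pass.

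STAT5B and STAT5A are close paralogues that lie next to each other on chromosome 17, with STAT3 as the next gene beyond STAT5A. STAT5B had 1.59, 4.23 and 6.12 in the arrays labelled RB-deficient, against 6.25, 5.54 and 6.62 in the RB-proficient arrays. Its 3 values under the RB-deficient label spanned 4.53 log2 units, and array 3 lay inside the RB-proficient range. The difference of −2.16 (SE 0.99, adjusted p 0.373 in limma's test) rests on arrays 1 and 2 of that label: it was −0.96 without array 1 and −0.02 with array 3 alone. STAT5A had 4.47, 2.91 and 3.98 in the arrays labelled RB-deficient, against 3.46, 3.48 and 4.29 in the RB-proficient arrays. The groups of STAT5A overlapped and its difference was 0.04 (SE 0.57, 95% interval −1.24 to 1.33), which includes changes of over 2-fold either way. Probe sequences were not used here, so how far the probe sets of these paralogues read each other's transcript is unknown.

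STAT4, a factor of interleukin 12 signalling known mainly from lymphocytes, had 4.39, 3.60 and 2.51 in the arrays labelled RB-deficient, against 3.69, 4.03 and 1.90 in the RB-proficient arrays. The groups overlapped, and the difference of 0.29 (SE 0.72, adjusted p 0.872 in limma's test) changed sign without the array labelled RB-deficient 1 (−0.15), with array 3 of that label alone (−0.70), without RB-proficient array 3 (−0.36) and with array weights (−0.20).

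JAK1, the kinase shared by receptors of interleukin 4, the interleukin 6 family and the interferons, had 6.75, 5.62 and 6.75 in the arrays labelled RB-deficient, against 8.31, 7.23 and 7.70 in the RB-proficient arrays. All 3 arrays labelled RB-deficient lay below all RB-proficient arrays, by at least 0.48. The difference was −1.37 (SE 0.55, 95% interval −2.61 to −0.14, 2.59-fold lower), with limma's test giving an unadjusted p of 0.0332 and an adjusted p of 0.321, and JAK1 did not pass. With the array labelled RB-deficient 3 alone it was −0.99.

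JAK2, the kinase of the prolactin, growth hormone and erythropoietin receptors, had 4.58, 4.12 and 6.38 in the arrays labelled RB-deficient, against 6.73, 6.25 and 5.60 in the RB-proficient arrays. Arrays 1 and 2 of the RB-deficient label were below every RB-proficient array, and array 3 was above RB-proficient arrays 2 and 3. The difference was −1.17 (SE 0.67, adjusted p 0.467 in limma's test), −1.84 without array 3, −0.72 without array 2 and 0.18 with array 3 alone.

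JAK3, which works with the common gamma chain of interleukin receptors mainly in leukocytes, had 6.10, 4.71 and 3.88 in the arrays labelled RB-deficient, against 4.13, 3.86 and 3.96 in the RB-proficient arrays. Array 1 of the RB-deficient label was the high one, array 2 was moderately higher and array 3 lay among the RB-proficient values. The difference was 0.91 (SE 0.62, adjusted p 0.537 in limma's test), and 0.31 without array 1. Of 14 measured leukocyte markers, 0 passed, 2 were higher without overlap (PTPRC and CD3D, chosen after their values were seen), 1 was lower, beside 7.12% and 15.3% of all genes, and 0 were at the floor in any array. Of these 14 markers, 10 had a positive and 4 a negative difference, beside 58.6% of all genes with a negative one. Their median difference was 0.51, beside −0.21 over all genes. The 14 summed to linear intensities of 575 to 826 under the RB-deficient label and 733 to 841 in the RB-proficient arrays. Their part in the values of JAK3 and STAT4 was not tested.

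TYK2, the JAK of interferon and interleukin 12 receptors, had 5.18, 4.22 and 5.26 in the arrays labelled RB-deficient, against 4.79, 3.97 and 4.62 in the RB-proficient arrays. The groups overlapped, and the difference of 0.43 (SE 0.53, adjusted p 0.735 in limma's test) ranged from 0.18 to 0.80 over the 15 alternative settings that kept the gene.

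Of the 9 genes, 5 had a negative and 4 a positive difference, beside 58.6% of all genes with a negative one. Of the 9, 0 passed an adjusted p of 0.05, where 0.00543% of all genes (1 of 18417, FN1) did. Those with no overlap between groups were 3 of 9, all lower, beside 15.3% of all genes lower without overlap and 7.12% higher. Since the set was chosen with this contrast known, nothing is read from these counts. The median difference was −0.93 over the 5 STATs and −0.37 over the 4 JAKs, beside −0.21 over all genes, and over the 8 genes other than STAT6 it was −0.44. Arrays differed here too: the median over the 9 genes was −0.79, −0.93 and −0.10 for array 1, 2 and 3 of the RB-deficient label, each against the RB-proficient means, where the median of all genes was −0.14, −0.37 and −0.14. Within the set, the differences did not share a direction, with STAT6, STAT5B, JAK1, JAK2 and STAT3 negative and JAK3, TYK2, STAT4 and STAT5A positive. This split coincides with signal level. The 4 positive genes were the dimmest of the 9, with means over all arrays of 3.35 to 4.67, against 5.06 to 7.31 for the 5 negative ones. Leaving out the dimmest 50% of all genes kept only the 5 negative genes. The part of signal level in the directions was not tested.

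**Figure D2:**
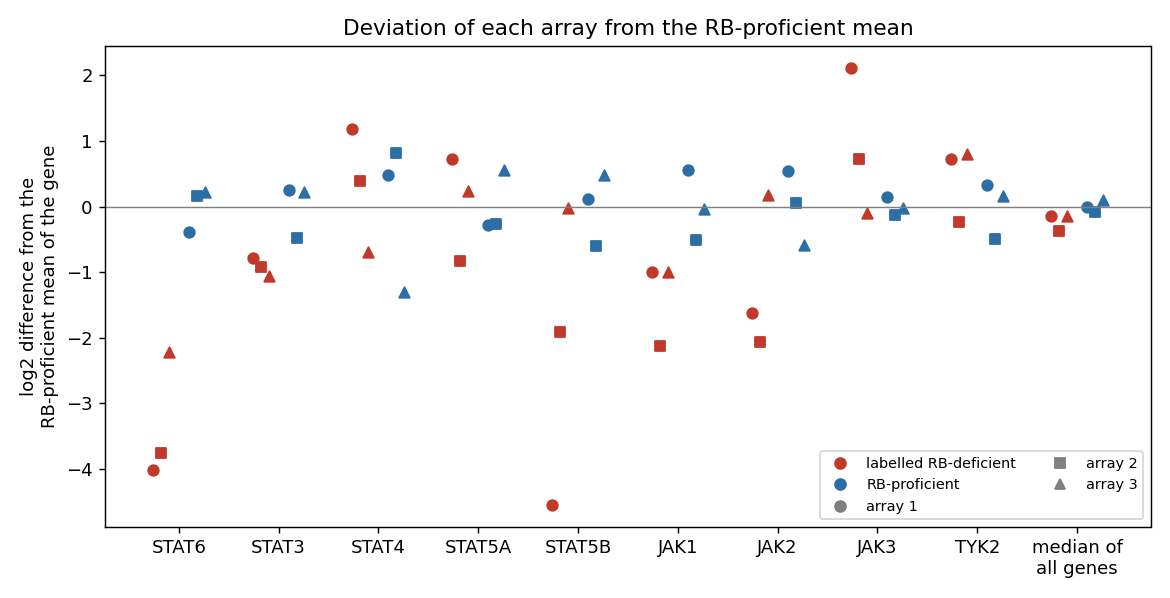
Log2 difference of each array from the RB-proficient mean of the gene (vertical axis), for the 9 genes and for the median of all genes, with arrays labelled RB-deficient in red, left, and RB-proficient arrays in blue, right. STAT6 lies at −4.03, −3.76 and −2.21 under the RB-deficient label, and STAT5B at −4.55, −1.91 and −0.02.

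STAT6 was also compared with other genes by the shape of its 6 values. The comparison covered 8805 genes at or above the median level, with some classes of symbol, such as LOC, FAM and MIR, left out. Among these genes the highest Pearson correlations with STAT6 over the 6 arrays belonged to ZC3H3 (r = 0.992), SETD7 (0.992), FLII (0.992), WDR82 (0.992) and ATP6V1B2 (0.991). FLII, a gelsolin-family actin regulator, came nearest in size, with 3.69, 3.22 and 5.09 in the arrays labelled RB-deficient against 6.92, 7.22 and 7.41 in the RB-proficient arrays. The lowest correlations belonged to ARC (−0.999), CT55 (−0.998), KCNT2 (−0.997), NRG3 (−0.997) and ZNF594 (−0.994). NRG3, a neuregulin, had 7.07, 6.76 and 6.24 in the arrays labelled RB-deficient against 5.36, 5.07 and 5.02 in the RB-proficient arrays. Such values are common with 6 arrays in 2 groups: 629 of the 8805 genes had r of 0.9 or more and 221 had r of −0.9 or less, and the split into groups alone accounts for 88.6% of the variance of STAT6. Of the other STAT and JAK genes, STAT5B (0.801), JAK1 (0.788), STAT3 (0.760) and JAK2 (0.757) ran with STAT6 and JAK3 (−0.773) ran against it, as a description over the same arrays.

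The rest of the pathway was described by 5 lists with 136 symbols, of which 127 were measured. Across these lists 0 of 127 genes passed an adjusted p of 0.05, in the reported setting or in any of 16 alternatives, and the smallest adjusted p over all of these was 0.0506, for BCL2L1 with an offset of 16. The alternative without the dimmest 50% of genes tested only 63 of these 127 genes. The values of the list genes are therefore given as differences that did not pass. Of all genes, 10.8% had an unadjusted p under 0.05 in limma's test in the lower and 2.85% in the higher direction.

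**Figure D3:**
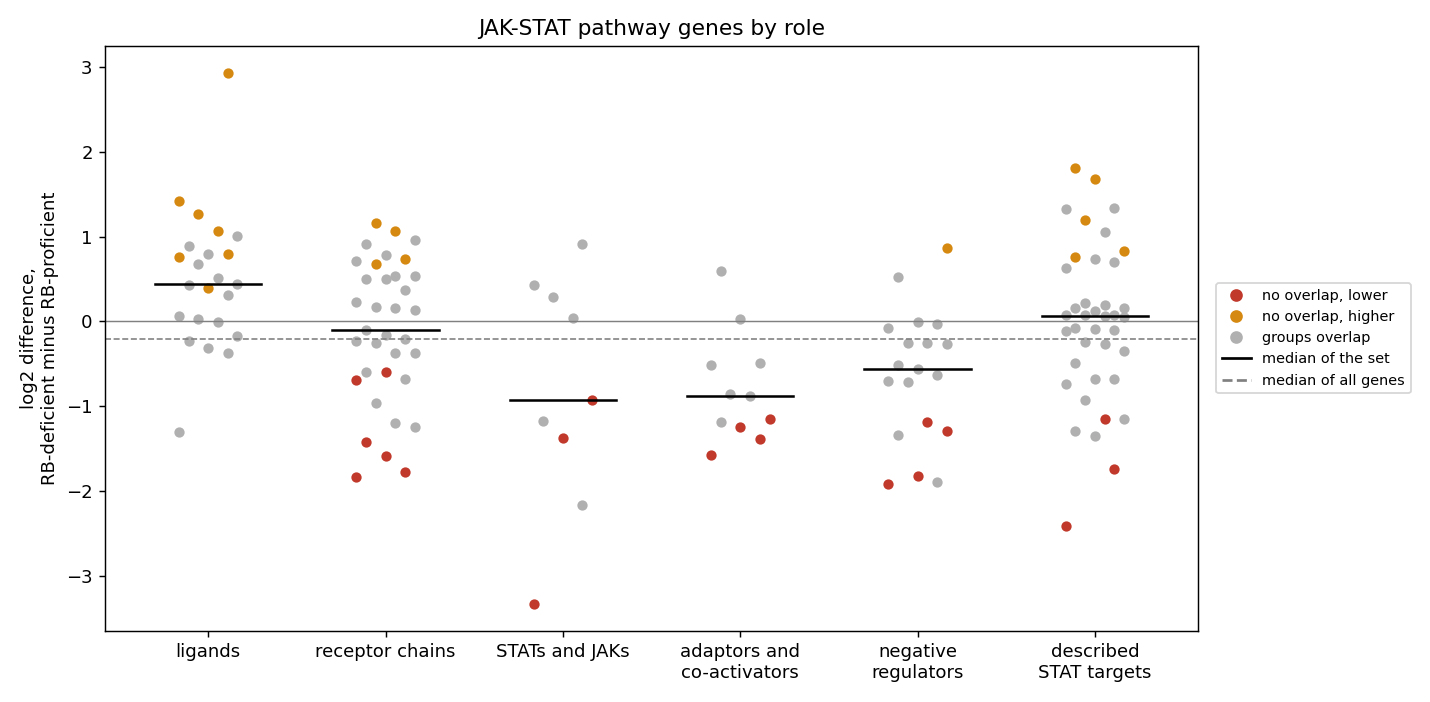
Log2 difference, RB-deficient minus RB-proficient (vertical axis), of each measured JAK-STAT pathway gene, grouped by role. Colours mark genes whose groups did not overlap, black lines the median of each set (0.45 for ligands and −0.88 for adaptors and co-activators) and the dashed line the median of all genes, −0.21.

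Of 23 measured ligand genes 17 had a positive and 6 a negative difference, beside 58.6% of all genes with a negative one. Without overlap 7 were higher and 0 lower, beside 7.12% and 15.3% of all genes. The median was 0.45, beside −0.21 for all genes, and with a floor of 16 these were 0.20 and 0. IL4, the cytokine that acts through STAT6, had 3.90, 4.24 and 4.31 in the arrays labelled RB-deficient, against 2.20, 3.50 and 2.51 in the RB-proficient arrays, a difference of 1.42 (SE 0.53, adjusted p 0.289 in limma's test). These are low signals, and with a floor of 16 the IL4 difference was 0.18. PRL, which encodes prolactin, differed by 1.27, IL20 by 1.07 and OSM, which encodes the interleukin 6 family cytokine oncostatin M, by 0.79. Closest to 0 among the alternatives were 0.71 for PRL with the offset, 0.28 for IL20 with the floor of 16 and 0.25 for OSM with the array labelled RB-deficient 3 alone. IL2, the T-cell growth factor that acts through STAT5 and was chosen after its values were seen, had the largest difference of the list. This difference was 2.94 (SE 0.58, adjusted p 0.206 in limma's test). IL2 had 3.84, 3.50 and 2.10 in the arrays labelled RB-deficient against 0, 0 and 0.62 in the RB-proficient arrays, 2 of which were at the floor. All values of IL2 lay below 4, the log2 of the floor of 16, so its difference vanishes with that floor. IL13, the other cytokine of STAT6 and chosen after its values were seen, differed by −1.30 (SE 0.81), with 1.19, 0.51 and 3.07 in the arrays labelled RB-deficient against 3.45, 3.75 and 1.48 in the RB-proficient arrays. Without detection calls, it is unknown whether these ligand signals lay above background.

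Receptor genes had no common direction. Of 35 measured receptor chains 18 had a negative and 17 a positive difference, the median was −0.10, and 6 were lower and 4 higher without overlap, beside 15.3% and 7.12% of all genes. IL4R, the chain that recruits STAT6, had 2.02, 2.30 and 3.12 in the arrays labelled RB-deficient, against 4.30, 3.63 and 5.03 in the RB-proficient arrays. All 3 arrays labelled RB-deficient lay below all RB-proficient ones, and the difference was −1.84 (SE 0.56, adjusted p 0.240 in limma's test), or −0.44 with a floor of 16. IL13RA1, which pairs with IL4R and was chosen after its values were seen, had 4.48, 5.49 and 5.42 in the arrays labelled RB-deficient, against 6.08, 5.55 and 5.83 in the RB-proficient arrays, a difference of −0.69 (SE 0.51). IL2RG, the common gamma chain that pairs with IL4R in leukocytes and was also chosen after its values were seen, differed by 0.17 (SE 0.50) with overlapping groups.

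OSMR, the oncostatin M receptor chain, had 3.53, 3.75 and 4.29 in the arrays labelled RB-deficient, against 5.10, 5.25 and 6.55 in the RB-proficient arrays, a difference of −1.78 (SE 0.56, adjusted p 0.250 in limma's test), or −1.12 with the offset. IL20RB, a chain of the interleukin 20 and 24 receptors of epithelium, had 6.42, 5.74 and 6.42 in the arrays labelled RB-deficient, against 7.58, 8.05 and 7.71 in the RB-proficient arrays, a difference of −1.59 (SE 0.48, adjusted p 0.236 in limma's test), and it stayed at −1.36 with array 3 of the RB-deficient label alone. LIFR, the leukaemia inhibitory factor receptor, differed by 1.07 and CNTFR, a ciliary neurotrophic factor receptor chain, by 0.74, both higher without overlap, and they were 0.03 for LIFR with a floor of 16 and 0.45 for CNTFR with array 3 of the RB-deficient label alone. IL6ST, the signalling chain gp130 shared by the interleukin 6 family and chosen after its values were seen, differed by −0.68 (SE 0.50) with overlapping groups. Among the other receptors named by the rule, IFNGR2 differed by −1.42, IL2RA by 1.16 and IL12RB1 by 0.67. The IFNGR2 difference was −0.75 without array 3 of the RB-deficient label and −2.77 with it alone, IL2RA was at 0.46 with it alone, and IL12RB1 was at 0.37 without array 1 of that label.

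Of 19 measured negative regulators 17 had a negative difference, beside 58.6% of all genes. Without overlap 4 were lower and 1 higher, beside 15.3% and 7.12% of all genes. The median was −0.56, beside −0.21 for all genes. With a floor of 16 these were −0.27 and 0, and without the dimmest 50% of genes −0.39 and −0.31. CBL, an E3 ubiquitin ligase that marks receptors for degradation, lay at 3.29 to 5.66 under the RB-deficient label, against 5.73 to 7.04 in the RB-proficient arrays, a difference of −1.92 (SE 0.69). DUSP22, a phosphatase, differed by −1.83, PTPN6, the phosphatase SHP-1, by −1.30 and PTPN2, a phosphatase that acts on JAKs and STATs, by −1.19. DUSP22 was at −0.98 with the offset and PTPN6 at −0.77 without RB-proficient array 2. SOCS1, which binds and inhibits JAKs, was the 1 regulator higher without overlap, with 4.96, 5.29 and 4.69 in the arrays labelled RB-deficient, against 4.07, 4.08 and 4.19 in the RB-proficient arrays, a difference of 0.87 (SE 0.47, adjusted p 0.443 in limma's test), or 0.52 with the offset. CISH, whose promoter is printed above and which is a feedback inhibitor induced by STAT5, had 1.79, 5.12 and 3.00 in the arrays labelled RB-deficient, against 4.25, 4.06 and 3.49 in the RB-proficient arrays. The values of CISH under the RB-deficient label lay on both sides of the RB-proficient ones, and its difference was −0.63 (SE 0.79).

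Adaptor and co-activator genes had the lowest median of the 5 lists, −0.88, with 9 of 11 negative and 4 lower without overlap (0 higher), beside 58.6% of all genes negative, 15.3% lower without overlap and 7.12% higher. GRB2, an adaptor between receptors and RAS, differed by −1.57 (SE 0.58), NCOA1, a co-activator known to bind STAT6, by −1.39 (SE 0.56), STAM, a sorting adaptor, by −1.25 (SE 0.59) and CREBBP, a histone acetyltransferase recruited by STATs, by −1.15 (SE 0.50). With array 3 of the RB-deficient label alone these were closer to 0, at −0.49 for GRB2, −0.46 for NCOA1 and −0.62 for CREBBP, and CBL and PTPN2 were at −0.59 and −0.30. STAM was at −0.69 without array 2 of that label.

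Transcripts described as STAT targets had no common direction. Of 39 measured genes 18 had a negative and 21 a positive difference, the median was 0.06, and 3 were lower and 5 higher without overlap, beside 15.3% and 7.12% of all genes. BCL2L1, which encodes the survival protein BCL-XL, had 2.58, 4.95 and 4.46 in the arrays labelled RB-deficient, against 6.16, 6.72 and 6.34 in the RB-proficient arrays, a difference of −2.41 (SE 0.66, adjusted p 0.214 in limma's test). BCL6, a repressor with 4 STAT palindromes in 1 of its promoter windows, had 4.04, 3.53 and 4.59 in the arrays labelled RB-deficient, against 5.81, 5.44 and 6.12 in the RB-proficient arrays, a difference of −1.74 (SE 0.51, adjusted p 0.231 in limma's test). MCL1, another survival protein gene, differed by −1.15 (SE 0.50). With the offset BCL2L1 was at −1.57 and BCL6 at −1.12, and with array 3 of the RB-deficient label alone MCL1 was at −0.61. On the high side, FGA, a fibrinogen chain gene, differed by 1.81, CSN3, the kappa casein gene, by 1.68, IGF1 by 1.20 and HIF1A by 0.83. With array 3 of the RB-deficient label alone FGA was at 0.96 and HIF1A at 0.16, CSN3 was at 0.87 with the offset, and IGF1 was at 0.39 with the floor of 16. CCL26, a chemokine induced by interleukin 4 through STAT6 and chosen after its values were seen, had 4.72, 3.76 and 0.91 in the arrays labelled RB-deficient, against 3.06, 2.81 and 3.30 in the RB-proficient arrays, so its groups overlapped. Of the 43 promoter windows of these target genes, 20.9% held TTCNNNGAA, beside 7.66% of all windows, and as the list was written from genes described as STAT targets this share is a description of the list.

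**Figure D4:**
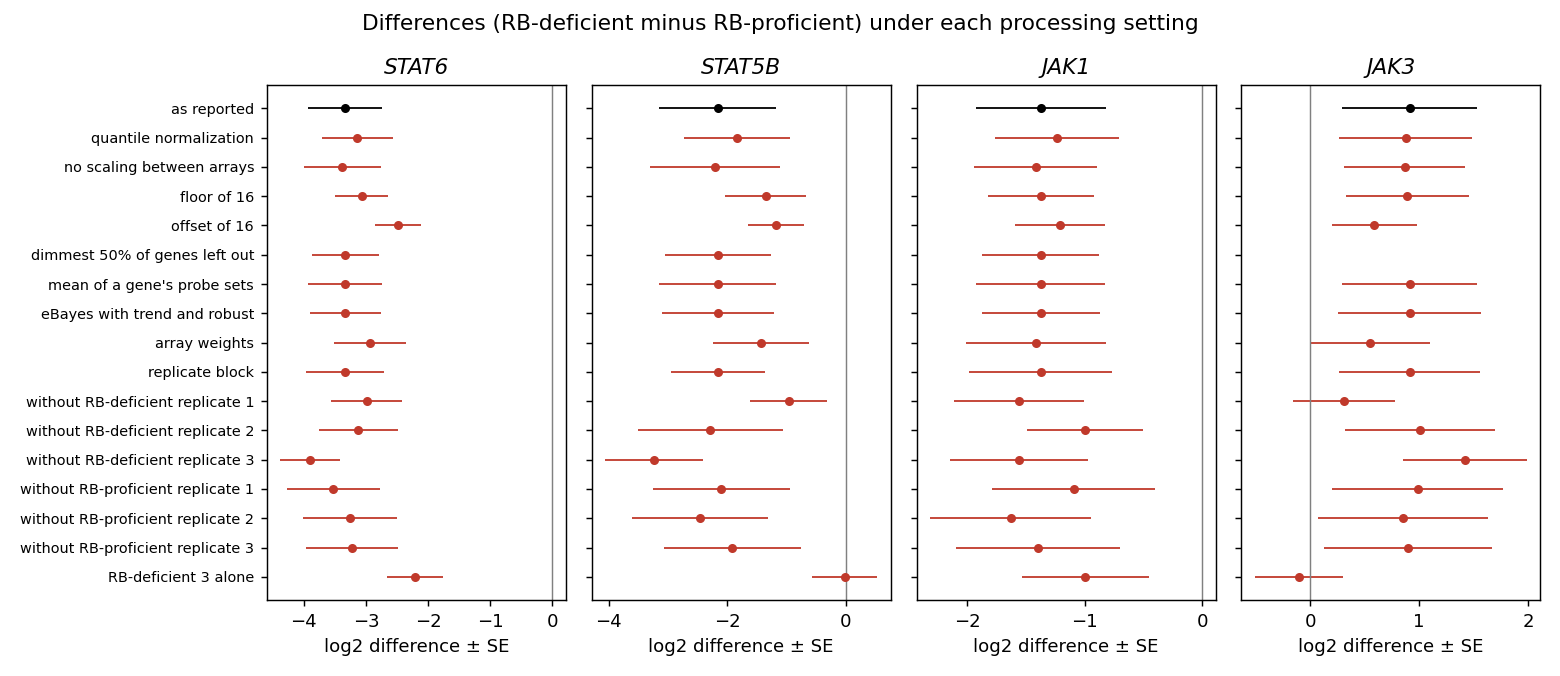
Log2 difference, RB-deficient minus RB-proficient, with its SE (horizontal axes) for STAT6, STAT5B, JAK1 and JAK3 under each processing setting (rows), with the reported setting in black. STAT6 stays between −3.89 and −2.21, while STAT5B runs from −3.23 to −0.02 and JAK3 from 1.42 to −0.10.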

How the data were processed

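The deposited values are linear intensities, 1 for each probe set on each array, which the authors made with Affymetrix Expression Console 1.1 per the submitters' processing notes; how they summarised and normalized is not given in the sources used here. RNA came from cells and matrix lysed together and was amplified with WT-Ovation Pico, per the labels' protocols. Each array was multiplied to bring its median to that of the others, 1 was used as the floor, and values were log2 transformed. Of 33297 probe sets, 19460 had 1 gene symbol in the platform annotation supplied with the data, and only these were used; the brightest stood for a gene that had several. Differences between groups were tested two-sided by lmFit and eBayes (limma 3.58.1, R 4.3.3), with Benjamini-Hochberg adjustment over 18417 genes and a threshold of 0.05. The 16 alternatives changed the scaling, floor, filter, probe-set rule, variance model, array weights, replicate block or arrays used. No date or batch is in the labels, and the number of arrays limits the precision.

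The 9 genes and the pathway and marker lists were chosen with earlier results of these data known. Named genes of the pathway lists were those without overlap between groups and a mean of at least 3, up to 4 per list and direction by size. Others are marked, except CISH, which lies outside this rule and is described because its promoter window is printed. The comparison that gave the 5 genes most and least like STAT6 left out symbols of the form LOC, LINC, C#orf#, MIR, SNOR, OR#, -AS, FAM and KIAA. Promoter windows came from RefSeq, GRCh38.p14. Of 12 fibroblast and endothelial markers 0 passed (median −0.18, COL3A1 at the floor in the array labelled RB-deficient 1), of 12 epithelial markers 0 passed (median −1.33) and of 14 leukocyte markers 0 passed (median 0.51).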

Additional observations from a re-analysis of the deposited data

How the results depend on the processing

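The difference of STAT6 was negative in all 16 alternative settings, from −3.89 to −2.21. It was −2.48 with an offset of 16 and −2.21 with the array labelled RB-deficient 3 alone. Of the 9 genes, 1 passed with that offset and with eBayes with trend and robust, and 0 in the other 14; the 1 is STAT6, which was chosen for its difference, so nothing is read from it. Over all genes, 58 passed with a floor of 16, 193 with the offset, 61 with trend and robust, 4 without the dimmest 50% of genes and 0 with array 3 of the RB-deficient label alone, and 0 to 4 passed with single arrays left out, beside 1 as reported. The median of the 9 genes ran from −1.14 to −0.72 with single arrays left out, and was −1.37 without the dimmest 50% of genes, a filter that kept 5 of the 9, and −0.10 with array 3 of that label alone. The count without overlap was 3 to 6 with single arrays left out, 6 without the array labelled RB-deficient 3. Groups with fewer arrays separate more easily. The shares over all genes were not recorded for these settings, so nothing is read from the change.

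Directions turned for STAT5A, STAT4, JAK2 and JAK3 and for the medians of the receptor and target lists. STAT5A gave −0.000842 without scaling and −0.30 to 0.48 with single arrays left out, where it was −0.05 without the array labelled RB-deficient 3, −0.30 without array 1 of that label, and −0.10 and −0.09 without RB-proficient arrays 1 and 2. STAT4 gave −0.20 with array weights, −0.36 to 0.79 with single arrays left out, and −0.70 with array 3 of the RB-deficient label alone, where JAK2 gave 0.18 and JAK3 −0.10. The receptor list median was 0.11 with a floor of 16, 0.0551 with the offset and 0.00929 with array weights, and ran from −0.22 to 0.22 with single arrays left out, being above 0 without the arrays labelled RB-deficient 1 and 3 and without RB-proficient array 3. The target list median was −0.0746 with array weights, −0.43 with array 3 of the RB-deficient label alone, and −0.0667 to 0.29 with single arrays left out, below 0 in 4 of the 6. The cause of these turns was not tested. With the replicate number as a block, STAT6 had a difference of −3.33 and the other differences kept their values. With this block 1 gene passed and no call among the 9 changed. Same-numbered arrays deviated with correlations of −0.12, 0.07 and −0.11, which does not settle whether the numbers pair the arrays.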
